A study of Mus musculus with 15 samples.

Results

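Gene expression in hindpaw sensory neurons of mice with a spinal cord injury (SCI) was set against that of naïve mice. The comparison took the 5 SCI and the 5 naïve libraries of a series of 15, and every gene with a mean of at least 1 CPM (reads of the gene scaled to the size of the library, not divided by gene length) over these 10 libraries, which were 15821 of the 54108 gene symbols in the deposited table. The other 5 libraries came from sham-operated mice and are given as context only. All mice were adult female C57BL/6J of 8 to 12 weeks. SCI mice had a laminectomy at vertebral level T10 and 1 minute of spinal cord compression with a vessel clip, and their tissue was taken 4 days later. Naïve mice had no surgery. Sham mice had the laminectomy without the clip and were also taken after 4 days. By the study's methods the operated mice were caged singly, received gentamicin and saline and no analgesic, and the SCI mice had their bladders expressed, while naïve mice were housed together. Injury, surgery, housing and care therefore cannot be told apart between SCI and naïve mice. In every mouse the neurons were labelled beforehand by wheat germ agglutinin, a dye-coupled lectin that travels back along sensory axons, injected into the hairy skin of both hindpaws. Dorsal root ganglia L2 to L6 of both sides were dissociated, about 3000 labelled cells were sorted, and each mouse gave 1 library.

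Dorsal root ganglion neurons carry touch, itch, temperature and pain from the skin to the spinal cord. Their pain-sensing members, the nociceptors, fall into a peptidergic class that releases neuropeptides and a non-peptidergic class, which ends in the outer epidermis, depends on the GDNF family receptor Ret and largely expresses the receptor Mrgprd. Low-threshold mechanoreceptors, among them the unmyelinated C-LTMRs of hairy skin, report touch. When the peripheral axon of such a neuron is cut, it is known to switch on a set of growth and stress genes and to turn down many of its channels and receptors. The lumbar ganglia studied here lie below the injured level.

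The SCI libraries held 2994450 to 4376734 reads assigned to genes (median 3691423), and the naïve libraries 1318933 to 7450970 (median 2527467). Naïve 1, 3 and 4 held fewer reads than any SCI library and are called shallow here, and naïve 2 and 5 are called deep, although naïve 2, with 3221230 reads, lay within the SCI range and only naïve 5 above it. Sham libraries held 2563287 to 7374710 reads. All 20 nociceptor markers had a mean above 10 CPM, and the summed level of these markers was 5790 to 6867 CPM in SCI and 5561 to 9410 CPM in naïve libraries. The naïve libraries were also the more variable ones. Over the 11450 genes with a mean above 10 CPM the median SD of log2 values was 0.14 in SCI, 0.28 in naïve and 0.19 in sham libraries. Mitochondrially encoded transcripts took 0.138 to 0.179% of the reads in SCI and 0.0922 to 0.323% in naïve libraries. Exact permutation tests of 15 such library measures and marker sums between SCI and naïve libraries gave no Benjamini-Hochberg adjusted p below 0.64 (two-sided, with 0.00794 as the smallest raw p that 5 against 5 libraries allow). Fewer cells of a type in the sorted pool and less RNA per cell cannot be told apart in these bulk libraries.

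Limma called no gene between SCI and naïve libraries at an adjusted p of 0.05 (0 of 15821 genes, 0.0%). The smallest adjusted p was 0.326 for Mrgprb5, followed by 0.762 for Mrgprd, and it was 0.929 for every other gene given below with a difference. On the reads recovered from the values edgeR also called 0 genes, and DESeq2 called 2, Mrgprd and Mrgprb5. At an unadjusted p of 0.05 limma counted 395 genes as higher in SCI (2.5%) and 115 as lower (0.727%), so 77.5% of these were higher. That split followed the scaling and the naïve libraries chosen. It was 43% higher after quantile normalization, 42.2% with log2 reads per library as a term, 48.2% in edgeR, 40.9% in DESeq2, 65.8% after median-ratio and 67.5% after TMM rescaling, 79.1% against the shallow naïve libraries alone and 22.5% against the deep ones alone. Without naïve 5 the counts were 1827 higher and 601 lower, whereas 243 were higher without naïve 1, 231 without SCI 2 and 249 without SCI 4, and 74 were lower without SCI 1. The median of all genes stood at a log2 difference of 0.08 (SCI minus naïve), with 0.18 against the shallow and -0.04 against the deep naïve libraries. Values below are on the scale log2(CPM + 1), which understates the change of genes near 1 CPM, and each difference is SCI minus naïve, given with ± its standard error (SE) from limma.

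A pair of descriptions was used for what held at each depth. In the first, every SCI library lay on one side of every naïve library. This was so for 51 genes with SCI above (0.322%) and 22 with SCI below (0.139%), of which 28 and 9 had a mean above 10 CPM. Without naïve 5 it was so for 616 genes above and 138 below. In the second, a gene had an unadjusted p under 0.05 and kept the sign and at least 0.5 times its difference against the shallow and against the deep naïve libraries taken separately. Such genes, called kept at both depths, numbered 172 with SCI higher (1.09%) and 102 with SCI lower (0.645%). Neither description is a test.

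**Figure D1:**
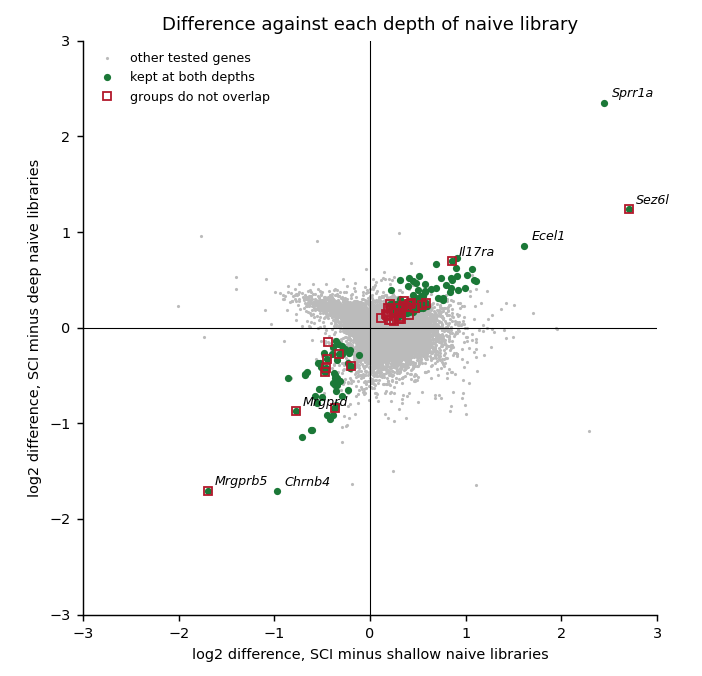
Log2 difference of SCI from the 3 shallow naïve libraries (horizontal axis) against the log2 difference from the 2 deep naïve libraries (vertical axis) for the 11450 genes with a mean above 10 CPM, 1 point a gene. Green points are genes kept at both depths and red squares genes whose SCI and naïve libraries do not overlap. Mrgprb5 lies at -1.70 and -1.71, Mrgprd at -0.78 and -0.87, Sez6l at 2.71 and 1.24 and Il17ra at 0.85 and 0.70.

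Markers of non-peptidergic nociceptors had lower means in SCI than in naïve libraries. All 14 listed genes were measured and all 14 were lower. At an unadjusted p under 0.05 there were 7 (0.727% of all genes), and none at an adjusted p of 0.05. For comparison 4808 of the 15821 genes were lower. The wider list of 20 nociceptor markers, which shares members with this one, had 19 lower and 1 higher. Its median of -0.21 was -0.38 against the shallow and 0.01 against the deep naïve libraries. Lower means were also the rule in other lists given below, such as ribosomal protein and Schwann cell genes. The median difference of the 14 non-peptidergic markers was -0.31, and it was -0.39 against the shallow and -0.28 against the deep naïve libraries. With log2 reads as a term all 14 stayed lower with a median of -0.22, where 6584 of 15821 genes were lower over all. Against each depth 10 of 14 were lower, where 1692 of 15821 were over all. Mrgprd, Grik1, Gfra2 and Cd55 did not overlap between the groups (0.139% of all genes with SCI below). Mrgprd, Grik1 and Gfra2 were among those kept at both depths (0.645% of all genes with SCI lower). They are also genes that the study named from these samples, and the marker list was drawn up with earlier results known. These counts are therefore no independent evidence of direction. The summed level of the 14 markers was 2676 to 2813 CPM in SCI, 3008 to 4096 CPM in naïve and 2457 to 2771 CPM in sham libraries, so the SCI and sham libraries lay below all naïve ones.

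Mrgprd, a G protein-coupled receptor for beta-alanine that defines most neurons of this class, had the smallest p of the list (gene ENSMUSG00000051207, chromosome 7 from 145314835 to 145324086 of GRCm38, plus strand). Mrgprd was at 109, 66.3, 62.6, 101 and 72.9 CPM in SCI libraries 1 to 5, against 138, 127, 124, 155 and 172 CPM in naïve libraries 1 to 5. It averaged 82.3 ± 21.2 CPM in SCI and 143 ± 20.4 CPM in naïve libraries (SD, n = 5 each). The highest SCI library lay below the lowest naïve library, and the difference was -0.82 ± 0.15. It was -0.78 against the shallow and -0.87 against the deep naïve libraries and between -0.93 and -0.73 when any 1 library was left out. In DESeq2 the difference was -0.86 with an adjusted p of 0.00289. Sham libraries held 31.3 to 133 CPM, and 1 of them, at 31.3 CPM, was below every SCI library. The 250 bases before its RefSeq start (chr7:145314585-145314834, plus strand, GRCm38.p6) are shown because it is the defining gene of the class. They hold neither the AP-1 motif TGANTCA nor the Runx motif TGTGGT on either strand, the motifs of the injury-linked Fos and Jun factors and of the Runx factors, one of which (Runx1) is known to direct this class in development.
Mrgprd: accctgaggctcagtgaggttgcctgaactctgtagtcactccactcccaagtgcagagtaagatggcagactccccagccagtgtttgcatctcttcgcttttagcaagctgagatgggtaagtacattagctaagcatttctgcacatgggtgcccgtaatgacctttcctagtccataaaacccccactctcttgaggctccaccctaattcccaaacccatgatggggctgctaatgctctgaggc

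Grik1, a kainate-type glutamate receptor subunit (chromosome 16 from 87895900 to 88290265), was lower by a similar amount at each depth. Grik1 was at 206, 196, 154, 231 and 192 CPM in SCI libraries 1 to 5, against 285, 277, 239, 290.2 and 260.5 CPM in naïve libraries 1 to 5. The groups did not overlap, with a difference of -0.47 ± 0.11, -0.47 against the shallow and -0.46 against the deep libraries. Gfra2 was at 159, 192, 131, 185 and 165 CPM in SCI libraries 1 to 5, against 251, 224, 209, 217 and 192 CPM in naïve libraries 1 to 5. Gfra2 is the Ret co-receptor for neurturin (chromosome 14 from 70890120 to 70979838), and its difference of -0.40 ± 0.11 again came without overlap. The narrowest of these gaps, between SCI 2 at 192.0 CPM and naïve 5 at 192.5 CPM, was smaller than 1 SD of either group. Cd55 encodes a complement regulator on the cell surface (chromosome 1 from 130439027 to 130462744). Cd55 was at 192, 176, 202, 202 and 192 CPM in SCI libraries 1 to 5, against 304, 225, 206, 282 and 203 CPM in naïve libraries 1 to 5. Its SCI libraries were tightly spaced, and naïve 5 and 3 lay just above the highest of them. The difference of -0.32 ± 0.12 was -0.44 against the shallow and -0.15 against the deep ones.

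Scn11a, the sodium channel Nav1.9, averaged 491 ± 34.9 CPM in SCI and 608 ± 106 CPM in naïve libraries (SD, n = 5 each), but its difference of -0.29 ± 0.12 shrank to -0.09 against the deep libraries. Lpar3, a receptor for lysophosphatidic acid, averaged 28.5 ± 10.2 CPM in SCI and 42.5 ± 14.7 CPM in naïve libraries (SD, n = 5 each) and differed by -0.55 ± 0.24, with -0.24 against the shallow and -1.02 against the deep libraries. Among the members above an unadjusted p of 0.05, the ATP receptor P2rx3 differed by -0.27 ± 0.13, the semaphorin receptor Plxnc1 by -0.20 ± 0.11 and the co-receptor Gfra1 by -0.21 ± 0.14. Tmem233 (-0.35 ± 0.19) and the receptor tyrosine kinase Ret (-0.23 ± 0.14) were each at 0.05 against the deep libraries and lower against the shallow ones only. Myelinating Schwann cell markers summed to 2352 to 2610 CPM in SCI and 1929 to 3802 CPM in naïve libraries, and their part in these values was not tested.

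Mrgprb5 had the smallest p of all genes. It belongs to the same receptor family as Mrgprd (chromosome 7 from 48167983 to 48169019, minus strand), and related copies lie beside it, so reads shared between copies are uncertain here. Mrgprb5 was at 5.37, 2.15, 5.93, 7.23 and 4.19 CPM in SCI libraries 1 to 5, against 18.2, 14.3, 12.4, 23.4 and 21.5 CPM in naïve libraries 1 to 5. Every SCI library was lower than every naïve library, on 86 reads in SCI and 282 in naïve libraries in all. It averaged 4.97 ± 1.92 CPM in SCI and 17.9 ± 4.65 CPM in naïve libraries (SD, n = 5 each). The difference was -1.70 ± 0.28, -1.70 against the shallow and -1.71 against the deep libraries. DESeq2 gave -1.90 with an adjusted p of 4.8e-06. Sham libraries held 0.813 to 17.6 CPM, which reached into both groups.

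Of 10 genes that the study picked from these samples for large fold differences, Mrgprb5 among them, 6 were lower and 4 higher in SCI, 4 lower and 2 higher at an unadjusted p under 0.05, and 4 lower and 1 higher were kept at both depths. As the study chose them on the same libraries, their directions are not independent evidence. Over all genes 0.727% were lower and 2.5% higher at that p. Those kept at both depths were 0.645% lower and 1.09% higher over all genes. Chrnb4, a subunit of neuronal nicotinic receptors, averaged 6.83 ± 5.05 CPM in SCI and 16.8 ± 7.55 CPM in naïve libraries (SD, n = 5 each) and differed by -1.27 ± 0.39, with SCI 4 at 15.5 CPM inside the naïve range of 7.03 to 27.4 CPM. Hal, which breaks down histidine, averaged 4.81 ± 2.43 CPM in SCI and 11.6 ± 5.23 CPM in naïve libraries (SD, n = 5 each) and differed by -1.12 ± 0.34. Nxpe2 differed by -0.63 ± 0.21, and its sham mean of 23.3 CPM was above the naïve mean of 17.7 CPM. Cap2, an actin-binding protein, was higher by 1.15 ± 0.38, mostly against the shallow libraries (1.68) and less against the deep ones (0.34). The calcium buffer Calb1 (0.70 ± 0.45) was at -0.25 against the deep libraries, the other direction. Sez6l, which had the largest positive difference of the 10, is described with the injury genes.

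**Figure D2:**
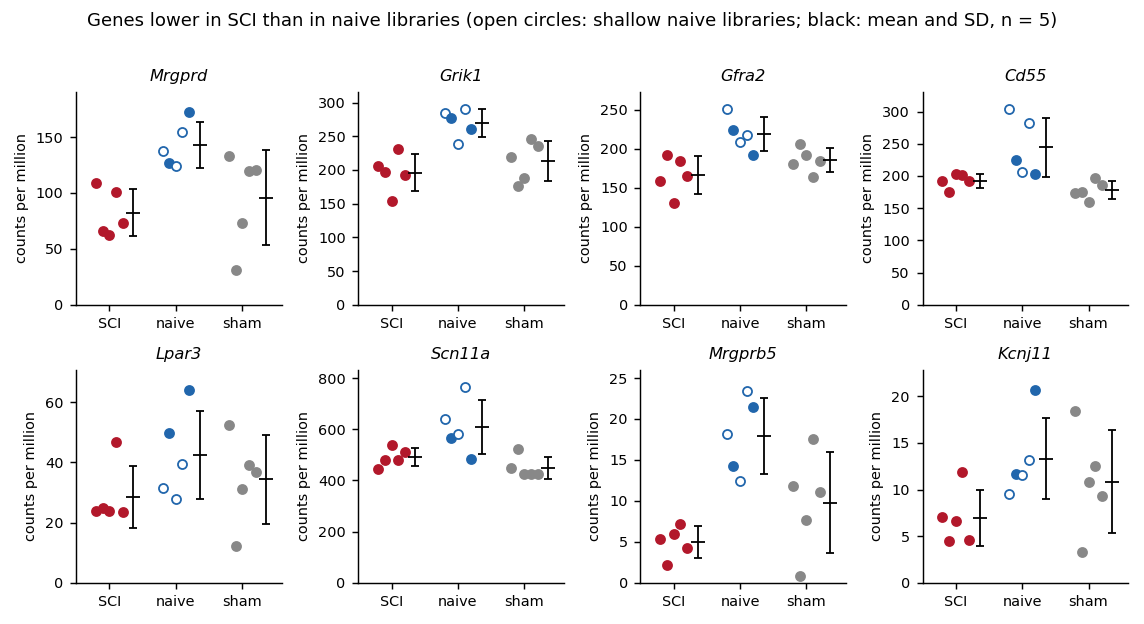
CPM of 8 genes with lower SCI means, 1 panel a gene, with SCI, naïve and sham libraries from left to right. Each point is a library, open circles are the shallow naïve libraries, and the black bars give the mean and SD (n = 5 a group). For Mrgprd, Grik1, Gfra2, Cd55 and Mrgprb5 every SCI point lies below every naïve point, and for Lpar3, Scn11a and Kcnj11 the groups overlap.

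Several channels of nociceptors and touch neurons were lower in SCI at each depth. In a list of 19 channels and receptors that the study named from these samples, 18 had lower and 1 a higher mean in SCI (4808 of 15821 genes lower over all). At an unadjusted p under 0.05 there were 9 lower and 1 higher (0.727% and 2.5% over all genes). All 9 of these lower genes were kept at both depths (0.645% of all genes with SCI lower). The median difference was -0.39, with -0.30 against the shallow and -0.50 against the deep libraries. The list was selected on these libraries and is no independent evidence of direction. Mrgprd, Grik1 and Gfra2 are members of it, and 5 of the others that were kept are potassium, GABA and mechanosensitive channels.

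Kcnj11 and Abcc8 encode the pore and the sulfonylurea receptor of the ATP-sensitive potassium channel, which couples metabolism to excitability, and lie next to each other on chromosome 7 (46093953 to 46100764 and 46104523 to 46180033, minus strand). Kcnj11 was at 7.07, 4.53, 6.59, 11.9 and 4.54 CPM in SCI libraries 1 to 5, against 9.49, 11.7, 11.6, 13.2 and 20.7 CPM in naïve libraries 1 to 5. Abcc8 was at 9.62, 13.8, 11.2, 21.9 and 6.63 CPM in SCI libraries 1 to 5, against 19.8, 20.1, 15.3, 20.5 and 33.2 CPM in naïve libraries 1 to 5. In each gene a single SCI library, SCI 4, was inside the naïve range and the other 4 lay below every naïve library. Kcnj11 differed by -0.88 ± 0.27, with -0.71 against the shallow and -1.14 against the deep libraries, and Abcc8 by -0.79 ± 0.28, with -0.60 and -1.07. Abcc8 was no member of the study's list. In sham libraries Kcnj11 ran from 3.25 to 18.5 CPM and Abcc8 from 3.66 to 24.6 CPM.

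Among potassium channels as a whole the means were spread to both sides. In a list of 34 voltage-gated subunits 17 were higher and 17 lower, with 3 lower and 0 higher at an unadjusted p under 0.05, and in 30 leak, inward rectifier and calcium-activated subunits 14 were higher and 16 lower, again with 3 lower and 0 higher. Over all genes 0.727% were lower at that p and 0.645% were lower and kept at both depths. All 6 at that p were kept at both depths. They were Kcng3 (-0.59 ± 0.22), a silent subunit that modifies Kv2 channels, the Kv1 beta subunit Kcnab1 (-0.60 ± 0.22, or -0.39 without SCI 3), the Kv4 partner Kcnip4 (-0.34 ± 0.13), the leak channel Kcnk1 (-0.54 ± 0.25), Kcnj11 and Abcc8. Kcng3, Kcnk1 and Kcnj11 are also in the study's channel list, which was selected on these libraries. The counts are to that extent no independent evidence of direction. For Kcnab1 the sham libraries, at 91.0 to 109 CPM, lay above every SCI library and above 3 of the 5 naïve libraries. Against the deep libraries the 2 lists had medians of -0.31 and -0.23, and against the shallow ones 0.19 and 0.14, so their overall balance turned with depth.

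Gabrg3, a GABA-A receptor subunit, averaged 6.33 ± 2.62 CPM in SCI and 12.4 ± 3.71 CPM in naïve libraries (SD, n = 5 each) and differed by -0.89 ± 0.28, the largest difference of the study's channel list, while its sham mean was higher than either, at 17.3 ± 10.3 CPM (SD, n = 5). Piezo2, the mechanically gated channel of touch neurons, averaged 447 ± 74.8 CPM in SCI and 542 ± 41.9 CPM in naïve libraries (SD, n = 5 each), and its difference of -0.29 ± 0.12 was the same against shallow (-0.30) and deep (-0.28) libraries within its SE. Of the list's members above an unadjusted p of 0.05, the sodium channel Scn3a differed by -0.28 ± 0.16, the calcium-activated potassium channel Kcnn3 by -0.34 ± 0.21, and the leak channels Kcnk13 and Kcnk18 by -0.37 ± 0.24 and -0.39 ± 0.26. The 1 higher member was the AMPA receptor subunit Gria4 (0.29 ± 0.11). The calcium-activated channel family member Ano3, outside that list, averaged 185 ± 19.1 CPM in SCI and 228 ± 29.8 CPM in naïve libraries (SD, n = 5 each) and differed by -0.30 ± 0.11.

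Genes tied to axon injury and regeneration had higher means in SCI. Of 30 listed genes 26 were measured, and 20 were higher and 6 lower, with 9 higher and 0 lower at an unadjusted p under 0.05 and 6 higher kept at both depths. Over all genes 11013 of 15821 were higher, 2.5% at that p. Of all genes 1.09% were higher and kept at both depths, and 0.322% had SCI above without overlap. The median difference of the list was 0.35, with 0.32 against the shallow and 0.25 against the deep libraries. With log2 reads as a term 25 of 26 were higher with a median of 0.30, where 9237 of 15821 genes were higher over all. The 6 genes kept at both depths were Sez6l, Sprr1a, Ecel1, Gadd45a, Bdnf and Sox11. Sez6l and Gadd45a did not overlap between the groups, and Sez6l and Bdnf are also among the genes that the study chose on these samples. The injury list was itself drawn up with earlier results of these data known. Its counts are therefore no independent evidence of direction. For each of the 6 the sham mean lay between the SCI and the naïve mean.

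Sez6l, a membrane protein of neurons related to seizure protein Sez6 (chromosome 5 from 112419151 to 112577185, minus strand), had the largest difference among the genes without overlap. Sez6l was at 13.9, 42.2, 54.0, 18.1 and 28.3 CPM in SCI libraries 1 to 5, against 4.74, 11.03, 0.413, 9.50 and 11.4 CPM in naïve libraries 1 to 5. It averaged 31.3 ± 16.8 CPM in SCI and 7.42 ± 4.73 CPM in naïve libraries (SD, n = 5 each). The difference was 2.12 ± 0.53, with 2.71 against the shallow and 1.24 against the deep libraries, and without 1 library it ran from 1.56 to 2.36. Sham libraries held 1.63 to 48.0 CPM, across both groups. The lowest SCI value, 13.9 CPM, was little above the highest naïve value of 11.4 CPM.

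Sprr1a, a small proline-rich protein that neurons make when their axons regrow (chromosome 3 from 92483952 to 92485895, minus strand), varied widely between libraries. Sprr1a was at 1.13, 23.4, 37.6, 20.4 and 57.6 CPM in SCI libraries 1 to 5, against 0.791, 0.649, 0, 22.7 and 7.45 CPM in naïve libraries 1 to 5. SCI 1 was as low as the naïve libraries, naïve 4 was as high as the SCI ones, and the others fell on opposite sides. Its difference of 2.41 ± 0.90 was 2.45 against the shallow and 2.35 against the deep libraries. Sham libraries held 0 to 42.5 CPM. Ecel1, a damage-induced neuronal endopeptidase (chromosome 1 from 87147655 to 87156521), gave 20.6, 37.2, 52.1, 19.9 and 36.3 CPM in SCI libraries 1 to 5, against 3.16, 25.0, 8.27, 29.2 and 11.1 CPM in naïve libraries 1 to 5. Naïve 2 and 4 lay inside the SCI range, and the difference was 1.31 ± 0.45, 1.61 against the shallow and 0.86 against the deep libraries.

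The growth-arrest and DNA-damage gene Gadd45a (chromosome 6 from 67035096 to 67037457, minus strand) showed a smaller but separate pair of groups. Gadd45a was at 24.9, 31.5, 27.7, 24.3 and 30.4 CPM in SCI libraries 1 to 5, against 18.2, 22.4, 17.4, 20.5 and 24.0 CPM in naïve libraries 1 to 5. The difference was 0.42 ± 0.15, 0.54 against the shallow and 0.24 against the deep libraries. Bdnf, the neurotrophin that nociceptors release in the spinal cord (chromosome 2 from 109674700 to 109727007), gave 69.9, 79.9, 83.4, 74.4 and 79.9 CPM in SCI libraries 1 to 5, against 52.2, 45.4, 43.8, 69.4 and 75.6 CPM in naïve libraries 1 to 5. Naïve 5 alone lay inside the SCI range, and the difference of 0.46 ± 0.15 was 0.51 and 0.39 against the shallow and deep libraries. All 5 sham libraries, at 57.3 to 62.2 CPM, lay below every SCI library.

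The 250 bases before the RefSeq starts of 3 of these genes are shown because they lie among the genes kept at both depths, 2 of them without overlap. The AP-1 motif TGANTCA occurred on either strand in 6.75% of 32851 mouse windows of this length and the Runx motif TGTGGT in 14.1%. Of the 26 measured injury genes 22 had a window, and 4 of these held the AP-1 motif (Sprr1a, Nts, Il6 and Bdnf) and 0 the Runx motif. A gene counted if any of its windows held the motif, whereas the shares over all mouse windows are by window. The counts and the shares are therefore not like for like, and enrichment was not tested. Of the 14 non-peptidergic markers 8 had a window, with 0 for either motif. Capitals mark the AP-1 matches, which stand at positions -146 and -116 from the start of Sprr1a (chr3:92485882-92486131, minus strand). Sez6l (chr5:112577199-112577448, minus strand) and Gadd45a (chr6:67037408-67037657, minus strand) hold none. A match is a run of letters and was not examined for binding.
Sprr1a: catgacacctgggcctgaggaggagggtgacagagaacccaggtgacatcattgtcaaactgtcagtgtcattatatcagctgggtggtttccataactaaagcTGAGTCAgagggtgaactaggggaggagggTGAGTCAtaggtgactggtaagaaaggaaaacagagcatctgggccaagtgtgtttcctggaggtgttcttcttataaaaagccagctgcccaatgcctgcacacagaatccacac
Sez6l: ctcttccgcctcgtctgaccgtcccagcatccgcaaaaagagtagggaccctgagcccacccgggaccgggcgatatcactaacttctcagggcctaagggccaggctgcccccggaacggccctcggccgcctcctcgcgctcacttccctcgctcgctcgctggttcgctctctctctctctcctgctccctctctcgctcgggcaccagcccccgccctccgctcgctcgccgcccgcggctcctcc
Gadd45a: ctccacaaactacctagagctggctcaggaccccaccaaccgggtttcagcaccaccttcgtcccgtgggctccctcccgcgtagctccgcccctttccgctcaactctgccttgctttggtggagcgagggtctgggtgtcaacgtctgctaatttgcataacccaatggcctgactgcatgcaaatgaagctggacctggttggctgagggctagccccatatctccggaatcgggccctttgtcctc

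The remaining injury genes differed less or less evenly. Sox11, a transcription factor of axon growth, differed by 0.46 ± 0.21 on means of 53.6 ± 20.3 CPM in SCI and 37.5 ± 8.20 CPM in naïve libraries (SD, n = 5 each), with SCI 3 far above the rest at 88.6 CPM and a difference of 0.27 without it. The neuropeptide Nts differed by 1.08 ± 0.45, but by 1.70 against the shallow and only 0.16 against the deep libraries. The tubulin Tubb6 (0.45 ± 0.19) and the adhesion protein Flrt3 (0.45 ± 0.21) were likewise at 0.09 and 0.19 against the deep libraries. A pair of genes in wide use as marks of nerve injury stayed above an unadjusted p of 0.05. Atf3, a transcription factor, averaged 136 ± 26.8 CPM in SCI and 119 ± 35.7 CPM in naïve libraries (SD, n = 5 each) and differed by 0.21 ± 0.17, and the neuropeptide Gal averaged 51.6 ± 9.80 CPM in SCI and 41.8 ± 8.06 CPM in naïve libraries (SD, n = 5 each) and differed by 0.30 ± 0.15. Their highest libraries belonged to different groups, naïve 4 for Atf3 and SCI 3 for Gal. Immediate early genes gave no member at an unadjusted p under 0.05 (0 of 22, 9 higher and 13 lower).

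**Figure D3:**
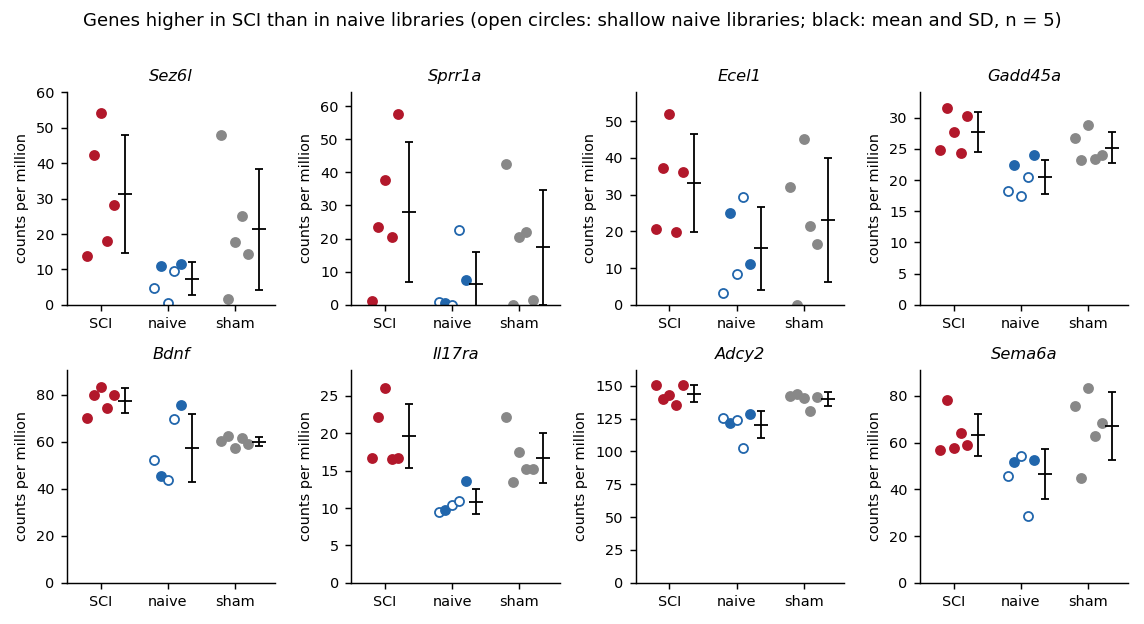
CPM of 8 genes with higher SCI means, 1 panel a gene, with SCI, naïve and sham libraries from left to right. Each point is a library, open circles are the shallow naïve libraries, and the black bars give the mean and SD (n = 5 a group). For Sez6l, Gadd45a, Il17ra, Adcy2 and Sema6a every SCI point lies above every naïve point, and for Sprr1a, Ecel1 and Bdnf the groups overlap.

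Receptors and ligands of immune signals had higher means in SCI for 20 of 25 measured genes (27 listed) and lower means for 5, where 11013 of 15821 genes were higher over all. At an unadjusted p under 0.05 there were 5 higher and 0 lower (2.5% higher and 0.727% lower over all genes). Of these, 2, Il17ra and Ccl2, were kept at both depths (1.09% of all genes with SCI higher). The median of 0.14 was 0.23 against the shallow and 0.03 against the deep libraries, where that of all genes was 0.18 and -0.04. Il17ra, the receptor of interleukin-17 (chromosome 6 from 120463247 to 120487559), had the smallest p of the list. Il17ra was at 16.7, 22.2, 26.0, 16.5 and 16.8 CPM in SCI libraries 1 to 5, against 9.49, 9.73, 10.3, 10.96 and 13.6 CPM in naïve libraries 1 to 5. It averaged 19.6 ± 4.30 CPM in SCI and 10.8 ± 1.67 CPM in naïve libraries (SD, n = 5 each). The groups did not overlap, and the difference of 0.79 ± 0.19 was 0.85 against the shallow and 0.70 against the deep libraries. Sham libraries, at 13.4 to 22.2 CPM, reached down to the highest naïve value.

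Ccl2, a chemokine that draws monocytes, averaged 10.2 ± 2.77 CPM in SCI and 5.95 ± 2.42 CPM in naïve libraries (SD, n = 5 each) and differed by 0.73 ± 0.29. Il13ra1, a receptor chain for interleukins 4 and 13, differed by 0.60 ± 0.17 and the TGF-beta receptor Tgfbr1 by 0.56 ± 0.18, in each case with naïve 5 inside or above the SCI range and only 0.28 and 0.21 left against the deep libraries. Csf1, a macrophage growth factor that injured sensory neurons make, differed by 0.28 ± 0.11. The interferon-induced gene Ifit3 had a lower SCI mean (-0.60 ± 0.23) and was kept at both depths. It was the only 1 of 26 interferon and class I genes at an unadjusted p under 0.05. Over all genes 0.727% were lower and 2.5% higher at that p, so 1 of 26 is no result about the set. Macrophages also express many of the immune receptors named here. Their markers summed to 23.2 to 148 CPM in SCI and 26.9 to 227 CPM in naïve libraries, and their part in these values was not tested.

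Signalling and synaptic genes gave scattered differences. Adcy2, an adenylyl cyclase of neurons (chromosome 13 from 68620043 to 68999541), gave 150.5, 139.8, 143, 136 and 150.4 CPM in SCI libraries 1 to 5, against 126, 122, 124, 102 and 128 CPM in naïve libraries 1 to 5. The groups did not overlap, and the difference of 0.26 ± 0.09 was small and present at each depth (0.30 shallow, 0.20 deep). Adcy2 is 1 of 25 genes of synapse formation and plasticity that the study drew from these samples, of which 11 were higher and 14 lower. At an unadjusted p under 0.05 there were 6 higher and 2 lower (2.5% and 0.727% over all genes). The study selected this list on these libraries, so it is no independent evidence of direction. Over all genes 0.322% had SCI above without overlap. Stxbp2, a syntaxin-binding protein of vesicle fusion, was the other member without overlap, at 56.9 to 70.3 CPM in SCI and 31.6 to 54.8 CPM in naïve libraries, with a difference of 0.34 ± 0.15 that was 0.20 without naïve 1, the lowest library. Of 27 transcription factors that the study named, 12 were higher and 15 lower. Among them 1, the aryl hydrocarbon receptor Ahr (0.53 ± 0.19), had an unadjusted p under 0.05, where 2.5% of all genes were higher. A count of 1 of 27 is no result about the set.

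Protein kinases and small GTPases of the same pathways went to each side. The protein kinase C isoform Prkcq averaged 64.6 ± 12.01 CPM in SCI and 102 ± 27.0 CPM in naïve libraries (SD, n = 5 each) and differed by -0.63 ± 0.18, and Prkar2b, a regulatory subunit of protein kinase A, by -0.25 ± 0.09. Both were kept at both depths. The small GTPase Rap2b had a higher SCI mean (0.71 ± 0.21) and was kept at both depths. Rras2, another small GTPase, differed by 0.52 ± 0.21 (0.34 without naïve 1), and by 0.73 against the shallow and 0.21 against the deep libraries. Rasgrp1, an exchange factor for Ras, differed by -0.35 ± 0.12, with -0.47 and -0.16 against the shallow and deep libraries. Dusp5, a phosphatase that limits ERK, differed by -0.46 ± 0.19, and Doc2b, a calcium sensor of vesicle release, by -0.82 ± 0.28, each kept at both depths. The inhibitory receptors Npy1r (0.34 ± 0.13) and Htr1b (0.34 ± 0.14) had higher SCI means, with 0.15 and 0.10 left against the deep libraries. Psat1, an enzyme of serine synthesis, differed by 0.30 ± 0.13, and by 0.16 without naïve 4.

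Of axon guidance and adhesion genes Sema6a, a transmembrane semaphorin, had the smallest p. Sema6a was at 56.9, 78.2, 57.7, 64.3 and 59.0 CPM in SCI libraries 1 to 5, against 45.9, 51.6, 54.2, 28.5 and 52.7 CPM in naïve libraries 1 to 5. The groups did not overlap, with a difference of 0.46 ± 0.16 that was 0.59 against the shallow and 0.26 against the deep libraries, and naïve 4 was the low end of its group, without which the difference was 0.29. In the sham libraries it averaged 67.1 CPM, above the SCI mean of 63.2 CPM. The adhesion molecule Chl1 differed by 0.28 ± 0.11. Of 42 guidance genes 29 were higher and 13 lower, with 2 higher and 0 lower at an unadjusted p under 0.05, shares near those of all genes (11013 of 15821 higher, 2.5% higher past that p).

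The other genes without overlap at a mean of at least 10 CPM had varied roles. On the lower side they were the actin-binding formin Fmnl1, the kinase activator Mob3b, the phosphatase inhibitor Ppp1r1a and the palmitoyltransferase Zdhhc14. Fmnl1 gave 146, 146, 153, 161 and 151 CPM in SCI libraries 1 to 5, against 187, 173, 178, 205 and 194 CPM in naïve libraries 1 to 5, with a difference of -0.30 ± 0.08. Ppp1r1a differed by -0.45 ± 0.12, Mob3b by -0.56 ± 0.19 and Zdhhc14 by -0.28 ± 0.12, and Ppp1r1a and Fmnl1 did so almost evenly at each depth. On the higher side 8 further genes were taken by size among those without overlap. They were Bbip1 (0.36 ± 0.13), 1500011K16Rik (0.36 ± 0.14), Rnf149 (0.35 ± 0.14), Tmem42 (0.33 ± 0.16), 4933439C10Rik (0.31 ± 0.13), Gmppa (0.30 ± 0.12), Siva1 (0.29 ± 0.18) and Rsl1d1 (0.26 ± 0.11). Among these 8 the difference against the deep libraries was at most 0.28.

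Other neuron classes gave fewer members past an unadjusted p of 0.05. Of 15 peptidergic markers 7 were higher and 8 lower, with 1 higher at that p (Npy1r), where 2.5% of all genes were. The peptidergic median of 0.00 was -0.10 against the shallow and 0.15 against the deep libraries. Of 20 markers of myelinated touch and proprioceptive neurons 10 were higher and 10 lower, with 0 at an unadjusted p under 0.05. Of 9 C-LTMR markers 3 were higher and 6 lower, and their median of -0.23 was -0.17 against the shallow and -0.28 against the deep libraries. Piezo2 and Gfra2 were lower at an unadjusted p under 0.05 (0.727% of all genes). These 2 genes are also expressed by other touch and non-peptidergic neurons. The 11 itch neuron markers kept their side at each depth, 7 higher and 4 lower, with a median of 0.27. Only 1 member, Nts, had an unadjusted p under 0.05, where 2.5% of all genes were higher. Nts is also counted in the injury list, and its difference was 1.70 against the shallow but 0.16 against the deep libraries.

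Gene groups of high expression turned round with the depth of the naïve libraries. Of 51 cytosolic ribosomal protein genes 50 were lower and 1 higher in SCI, with 0 at an unadjusted p under 0.05, and their median of -0.16 was -0.44 against the shallow and 0.27 against the deep libraries. With log2 reads as a term 48 of 51 were higher, with a median of 0.06. The 7 measured mitochondrial mRNAs were lower by a median of -0.38, which was -0.82 against the shallow and 0.30 against the deep libraries. Cytoskeletal genes (25 of 30 lower, medians -0.33 and 0.18), glycolysis (15 of 18 lower, -0.36 and 0.18), the nuclear respiratory chain (37 of 49 lower, -0.21 and 0.18) and the proteasome (16 of 31 lower, -0.15 and 0.18) did the same, with 0 members at an unadjusted p under 0.05 in each. Their medians with log2 reads as a term were 0.02, 0.04, 0.09 and 0.12. The 10 genes with the highest mean were Map1b, Dst, Prune2, Dync1h1, Map1a, Kif1a, Dgkh, Kif1b, Ank2 and Sptbn1, chiefly cytoskeletal, transport and scaffold genes of long axons. All 10 were lower against the shallow and higher against the deep libraries, for example Map1b with -0.41 and 0.24. The non-peptidergic, injury and itch lists above kept the sign of their median at each depth. So did other lists, among them C-LTMR markers (-0.17 shallow, -0.28 deep) and endothelial markers (0.67 shallow, 0.16 deep).

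**Figure D4:**
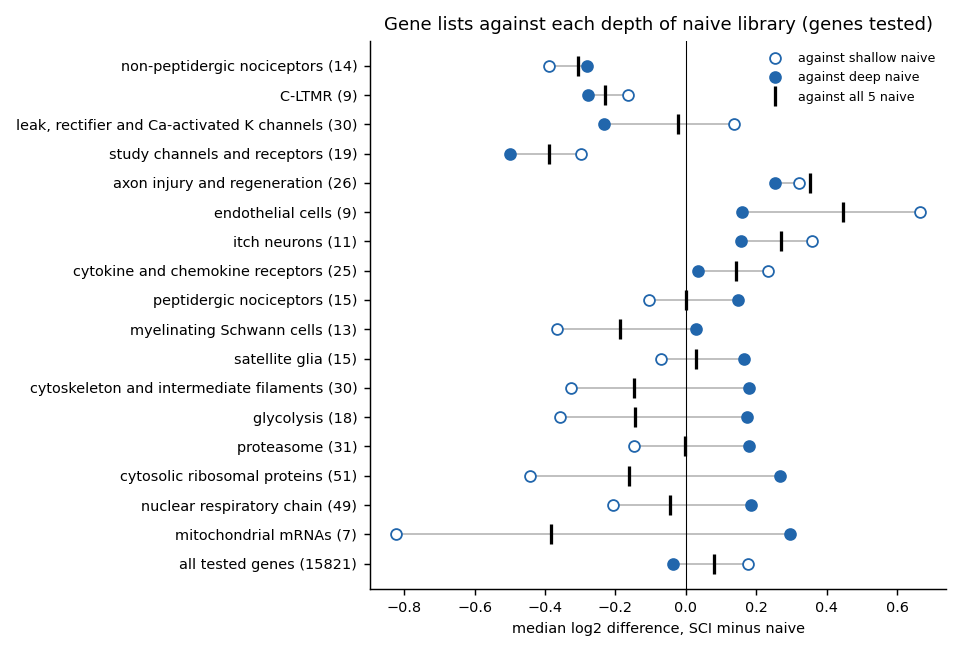
Median log2 difference, SCI minus naïve, of 17 gene lists and of all 15821 tested genes (horizontal axis), with the number of genes tested in brackets. Open circles are against the 3 shallow naïve libraries, filled circles against the 2 deep ones and black marks against all 5. The non-peptidergic median is negative at each depth (-0.39 and -0.28), the injury median positive (0.32 and 0.25), and the ribosomal median changes sign (-0.44 and 0.27).

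RNA of other cell types was present in all libraries. Satellite glia markers summed to 3539 to 4360 CPM in SCI and 2903 to 5246 CPM in naïve libraries, and myelinating Schwann cell markers to 2352 to 2610 CPM in SCI and 1929 to 3802 CPM in naïve libraries. All 13 Schwann cell markers had lower SCI means, 2 at an unadjusted p under 0.05 (0.727% of all genes). The median of -0.19 was -0.36 against the shallow and 0.03 against the deep libraries. The 2 were kept at both depths (0.645% of all genes with SCI lower). They were Drp2 (-0.47 ± 0.12), a dystrophin-related protein of myelinating Schwann cells, and Fa2h (-0.42 ± 0.16), which makes myelin lipids. Endothelial markers leaned the other way, with 8 of 9 higher, a median of 0.45, and 0.67 and 0.16 against the shallow and deep libraries. Their sum was 46.5 to 80.9 CPM in SCI and 37.2 to 60.2 CPM in naïve libraries (exact permutation test, two-sided p = 0.0556, which adjustment over the 15 library tests raised to 0.64). Flt1, a VEGF receptor, differed by 1.21 ± 0.39 and the endothelial cadherin Cdh5 by 1.00 ± 0.34, and Cdh5 did not overlap but rested on 34 reads in SCI and 8 in naïve libraries. Gfap, the filament of activated glia, differed by 0.76 ± 0.29 and also did not overlap, at 0.954 to 2.64 CPM in SCI and 0 to 0.731 CPM in naïve libraries, on 26 reads in SCI and 9 in naïve libraries. In naïve libraries Cdh5 averaged 0.41 CPM and Gfap 0.50 CPM, below the filter of 1 CPM. Each passed the filter only through its SCI libraries, so a higher SCI mean was fixed in advance. Mural cell markers summed to 684 to 958 CPM in SCI and 444 to 888 CPM in naïve libraries and fibroblast markers to 504 to 965 CPM in SCI and 511 to 1919 CPM in naïve libraries. Neutrophil markers were at 0 to 17.8 CPM in SCI and 0 to 58.5 CPM in naïve libraries, with Ly6g, Elane and Cxcr2 at 0 in all 10, and lymphocyte markers at 1.75 to 4.53 CPM in SCI and 1.46 to 5.38 CPM in naïve libraries, with Cd8a, Trbc2 and Ncr1 at 0. The part of these cells in the differences above was not tested.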

How the data were processed

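RNA of sorted hindpaw sensory neurons was measured in 15 libraries, 1 a mouse, of which 5 SCI and 5 naïve entered the tests. Per the file headers the deposited signal values are named RPKM. The submitters' processing notes name HISAT2, HTSeq, DESeq2 and the mm10 build, and versions are not given in the sources used here. The authors' values proved to be whole reads times 1 constant per library, with no division by gene length (0 values outside a relative tolerance of 1e-06), so reads were recovered and values are called CPM. A stranded kit was used, but the strand setting of the counting is not given in the sources used here, so genes that overlap another gene are uncertain.

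Of 54232 lines, 27 with a number in place of a name (at most 0.21% of reads) and 97 repeats were left out. Limma 3.58.1 (R 4.3.3) with a variance trend was run on log2(CPM + 1) over 15821 genes, with Benjamini-Hochberg adjustment. On simulated data with 200 changed genes it recovered 97% of 2-fold and 100% of 4-fold changes with 2 false calls, against 4 false calls in edgeR and 16 in DESeq2. The simulation gave every gene the same dispersion in both groups and changed only well-expressed genes. The real median SD of log2 values was 0.28 in naïve and 0.14 in SCI libraries. These rates therefore cannot tell which changes the test missed in the real libraries. The edgeR 4.0.16 and DESeq2 1.42.0 fits on recovered reads were alternatives, beside other pseudocounts, filters, scalings, naïve subsets and leaving out each library. The study's own analysis set outlying values aside, whereas all deposited values were used here.

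Gene lists, members and the rule for named genes were chosen with earlier results of these data known. The rule named genes without overlap by size, the study's own lists, list members by smallest p or highest mean, and the 10 highest genes. Lpar3, Sprr1a, Sox11, Tubb6, Flrt3, Atf3, Gal and Ccl2 were chosen after their values were seen. Members of the study's lists whose difference was under its SE were counted but not named, an exception made after the values were seen. A few genes that the rule covers are not reported here. Positions came from GENCODE M21 (GRCm38), which matched 15670 of the tested genes, and promoters from RefSeq (GRCm38.p6).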

Additional observations from a re-analysis of the deposited data

Results flagged for a closer look

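Of 172 groups of 5 libraries checked, 11 had a library farther from the others than Dixon's 95% limit allows, and chance alone flags about 1 group in 20. In SCI libraries, Lpar3 was high in SCI 4 (46.75 CPM, next 24.8 CPM), Prkar2b in SCI 4 (164.5 CPM, next 151.6 CPM) and Stxbp2 in SCI 4 (70.25 CPM, next 59.1 CPM). Sox11 was high in SCI 3 (88.64 CPM, next 51.3 CPM), Gfap in SCI 3 (2.636 CPM, next 1.41 CPM) and Cdh5 in SCI 1 (4.243 CPM, next 1.91 CPM). In naïve libraries, Abcc8 was high in naïve 5 (33.18 CPM, next 20.5 CPM) and Atf3 in naïve 4 (180.5 CPM, next 117.8 CPM). Ano3 was low in naïve 3 (176.6 CPM, next 227 CPM) and Adcy2 low in naïve 4 (102.3 CPM, next 121.6 CPM). In sham 2 the 50 highest genes took 4.424% of the reads, against 3.44% or less in the other sham libraries.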

How the results depend on the processing

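In all 30 alternatives were run. Genes past an adjusted p of 0.05 numbered 2 in DESeq2 (Mrgprd and Mrgprb5), 1 after thinning to the shallowest library (Mrgprb5) and 12 after removal of values over 50% away from their group mean, and 0 otherwise.

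Counts of genes higher and lower at an unadjusted p of 0.05 (395 and 115) became 798 and 224 with no filter, 239 and 65 at a mean above 10, 241 and 319 after quantile normalization, 184 and 252 with log2 reads as a term, 210 and 226 in edgeR, 148 and 214 in DESeq2, 1344 and 432 with quality weights, 161 and 554 against the deep and 2797 and 737 against the shallow naïve libraries, and 973 and 452 with values beyond 50% left out. The lower count was 189 after median-ratio and 179 after TMM rescaling. Leaving out 1 library gave 231 to 1827 higher and 74 to 601 lower genes, with the highest of each without naïve 5. Among alternatives chosen after seeing the data, leaving out the 2 shallowest naïve libraries gave 202 and 371, and the lower count was 286 in edgeR and 376 in voom with log2 reads as a term. Genes without overlap (51 above, 22 below) were 28 and 9 at a mean above 10, and 39, 35 and 56 below after median-ratio, TMM and quantile scaling. Without 1 library they were 77 to 616 above and 26 to 138 below, which leaving out a library can only raise.

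Of the 80 genes given with a difference 77 kept their sign throughout. Tmem233 was 0.055 and Ret 0.050 against the deep naïve libraries and Calb1 -0.249, and without the 2 shallowest Ret was 0.003 and Calb1 -0.113. Chrnb4 and Nts passed an adjusted p only with values beyond 50% left out.

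With the replicate number as a replicate block limma called 0 genes, and 319 were higher and 109 lower at an unadjusted p of 0.05. The numbers do not pair the mice. Same-numbered SCI and naïve libraries correlated at -0.25 to 0.04, and none correlated best with its own number. Depth, which spans 1318933 to 7450970 reads in naïve libraries, limits the comparison, and genes at a few CPM rest on few reads in the shallow libraries.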
